A study of Mus musculus with 16 samples.

Results

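The 7 genes described here encode the MHC class II presentation machinery: the classical chains H2-Aa, H2-Ab1 and H2-Eb1, the invariant chain Cd74, the transactivator Ciita and the peptide exchange factor chains H2-DMa and H2-DMb1. They were taken by name from the 45513 genes counted in each library, by a rule that sets no threshold on a measured value. EpCAM+ epithelial cells from the colon of 8 mice were sorted into tdTom+ and tdTom- cells, giving 2 libraries per mouse and 8 per population, and RNA was sequenced from each. All mice were Atoh1(WT)CreERT2 R26RtdTom animals, adult mice of both sexes on a C57BL/6 background per the study's methods, homozygous for an Atoh1 allele that keeps its coding sequence and carries an inducible Cre downstream of it, with 1 copy of the reporter. Every mouse received 1 mg of tamoxifen per day on 3 days, so no untreated or Cre-free control entered the comparison. Cre made in Atoh1-expressing cells switches tdTom on permanently, which means that tdTom+ cells include both secretory cells and any descendants formed after labelling, and that tdTom- cells are the rest of the EpCAM+ epithelium, mainly absorptive cells. The comparison asks how secretory and other epithelial cells of 1 colon differ. The mouse labels fall into 3 number series (mice 1 to 3, mouse 4, mice 5 to 8), whose meaning the labels do not give.

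MHC class II molecules are pairs of an alpha and a beta chain that display peptides from endosomes to CD4+ T cells. The pair assembles with the invariant chain, is carried to endosomes where proteases trim that chain, and then exchanges the remaining fragment for other peptides with the help of H2-DM. CIITA, a co-activator without DNA binding of its own, is recruited to class II promoters by factors bound to the X and Y boxes, and its own gene is inducible by interferon gamma. Professional antigen-presenting cells express these genes constitutively, while intestinal epithelial cells do so at lower and inducible levels.

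Promoter windows of RefSeq genes (GRCm38.p6, 250 bases before to 50 after the start) were given for 4 of the 7 genes, namely H2-Aa, H2-Eb1, H2-DMa and H2-DMb1, and also for H2-DMb2. Stretches of 60 bases are shown for genes that differed in direction between the populations. They are written 5′ to 3′ on the strand of the gene and end 8 bases past a Y box. Each holds the Y box letters, and the exact core letters of the X box are in H2-Eb1 and H2-DMb1 only. Capitals mark the Y box letters (CCAAT, here read as ATTGG on the opposite strand) and the core letters of the X box (CTAGNNAC).
H2-Eb1 (chr17:34305761-34305820, plus strand): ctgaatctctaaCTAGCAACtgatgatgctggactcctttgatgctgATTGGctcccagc
H2-DMb1 (chr17:34153083-34153142, plus strand): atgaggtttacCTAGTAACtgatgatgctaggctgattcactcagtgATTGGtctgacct
H2-Aa (chr17:34287859-34287918, minus strand): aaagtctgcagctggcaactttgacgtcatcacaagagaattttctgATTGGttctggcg
H2-DMb2 (chr17:34145112-34145171, plus strand): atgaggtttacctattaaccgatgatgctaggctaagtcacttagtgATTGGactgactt

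H2-Eb1, which was lower in tdTom+ cells, and H2-DMb1, which was higher, both held an X box core followed by a Y box, with 27 bases between them in H2-Eb1 and 28 in H2-DMb1. From the first base of that core, 18 of 20 bases were the same in these genes. H2-DMb1 and its neighbour H2-DMb2 had the same base at 53 of the 60 positions shown. In the H2-Aa and H2-DMb2 windows the Y box was found and the exact X core letters were not. Near variants of those letters were not searched. H2-Eb1 held a further CCAAT, 35 bases before the start. The first H2-DMa window held neither motif, and the second held a Y box 198 bases before the start. An interferon gamma activated site (GAS, TTCNNNGAA) was found in the H2-DMb2 window alone among these genes. Both strands were searched, and no matches to different motifs overlapped in these genes. CCAAT was in 37.4% of all 32851 windows, CTAGNNAC in 10.4%, both of these in 3.89% and TTCNNNGAA in 8.3%. These matches describe the letters of the windows.

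The libraries held 16482530 to 24218367 counts in tdTom+ cells and 18318172 to 45791503 in tdTom- cells, the largest being the tdTom- library of mouse 4. A floor of 3 counts corresponded to 0.0583 to 0.194 counts per 1e6 (CPM, on TMM library sizes), which covers counting error only. Atoh1, which drives the label, had a mean level of 132 ± 19.3 CPM in tdTom+ libraries and of 5.70 ± 1.67 CPM in tdTom- libraries (SD, n = 8). Of the fixed markers, 7 of 7 goblet cell genes were higher and 7 of 7 absorptive cell genes lower in tdTom+ cells, and Epcam was at 1121 CPM or more in all 16 libraries. At the threshold used for single genes, an adjusted p under 0.01 in edgeR's quasi-likelihood test across 15841 genes, 25.5% of the genes tested were lower in tdTom+ cells and 25.5% were higher.

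Against this background, 4 of the 7 class II genes were lower in tdTom+ cells (H2-Aa, H2-Eb1, H2-DMa and Ciita). H2-DMb1 was higher, and H2-Ab1 and Cd74 did not pass. That fit held no mouse term, although the libraries are paired by mouse. The 7 genes had a median log2 fold change of -1.59, beside 0.0039 over all genes tested. H2-Aa, H2-Eb1, Cd74, Ciita and H2-DMa were lower in the tdTom+ library of all 8 mice, H2-DMb1 was higher in all 8, and H2-Ab1 was lower in 3 and higher in 5. For each of the 7 genes, the ranges of the populations overlapped. In a fit blocked by mouse, 5 class II genes were lower, Cd74 being the additional one, and 1 was higher. In that fit 28.9% of all genes tested were lower and 28.4% higher.

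**Figure D1:**
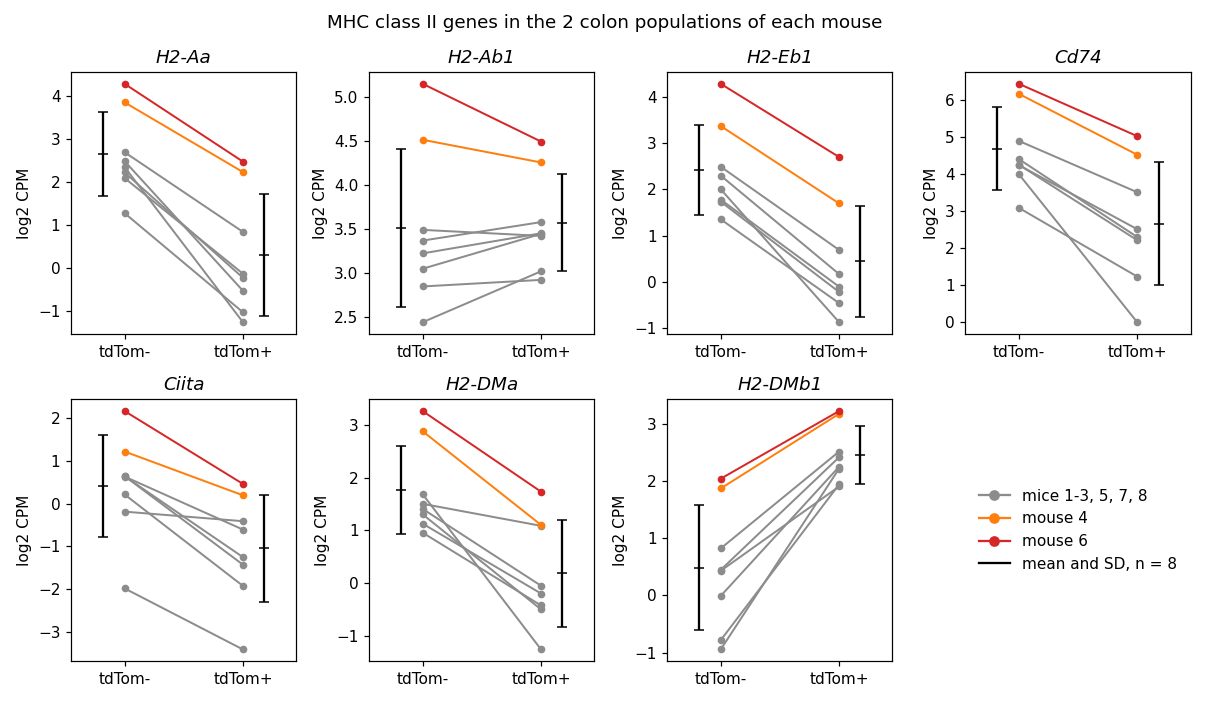
Log2 CPM (y axis) of each of the 7 class II genes in the tdTom- and tdTom+ libraries of 8 mice, 1 line per mouse, with mice 4 and 6 coloured and black bars for the mean and SD. Lines fall in every mouse for H2-Aa, H2-Eb1, Cd74, Ciita and H2-DMa, rise in every mouse for H2-DMb1, and run both ways for H2-Ab1.

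H2-Aa (ENSMUSG00000036594, chromosome 17, 34282744 to 34287827, minus strand, GRCm38) encodes the alpha chain of I-A. Its lowest, median and highest levels were 2.32, 5.23 and 19.3 CPM in tdTom- cells and 0.324, 0.788 and 5.43 CPM in tdTom+ cells. Mouse 6 was highest in both populations, and the tdTom+ libraries of all mice but mice 4 and 6 lay under every tdTom- library. The log2 fold change was -2.07 (SE 0.53, adjusted p = 0.00202, edgeR), and within single mice it lay between -3.60 and -1.62. H2-Eb1 (ENSMUSG00000060586, chromosome 17, 34305877 to 34316199, plus strand), the beta chain of I-E, had lowest, median and highest levels of 2.46, 4.37 and 19.4 CPM in tdTom- cells and 0.453, 0.934 and 6.41 CPM in tdTom+ cells. Its log2 fold change was -1.84 (SE 0.51, adjusted p = 0.00387, edgeR), and without mouse 1 the adjusted p was 0.0105. H2-Ea, listed in the annotation as the pseudogene of the I-E alpha chain, had 0 counts in all 16 libraries. C57BL/6 mice carry a defective H2-Ea and make no I-E at the cell surface.

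H2-Ab1 (ENSMUSG00000073421, chromosome 17, 34263209 to 34269418, plus strand), the beta chain that pairs with H2-Aa, did not pass the test in either direction. Its lowest, median and highest levels were 5.35, 9.76 and 35.4 CPM in tdTom- cells and 7.51, 10.8 and 22.5 CPM in tdTom+ cells, so that the tdTom- libraries spread wider in both directions. The log2 fold change was -0.13 (SE 0.33, adjusted p = 0.757, edgeR), within single mice it ran from -0.66 to 0.58, and its sign turned once the mouse entered as a block (0.02, adjusted p = 0.881, edgeR). The change was negative in mice 1, 4 and 6, the mice with the highest H2-Ab1 levels in tdTom- cells. Because H2-Ab1 and H2-Aa form 1 dimer, their ratio of levels per length (counts per kilobase of exon and 1e6 counts, FPKM) was taken in each library, a comparison chosen after the values were seen. It had a lowest, median and highest value of 1.71, 2.06 and 2.64 in tdTom- cells and 4.73, 14.2 and 38.5 in tdTom+ cells, without overlap. The within-mouse log2 change of H2-Ab1 exceeded that of H2-Aa by 2.42 ± 0.96 (SD, n = 8), in all 8 mice (exact sign-flip test, two-sided, p = 0.0078, the smallest that 8 pairs allow, and 0.0117 adjusted over 3 such contrasts). H2-Eb1 exceeded H2-Aa by 0.39 ± 0.38 (SD, n = 8), in 7 of 8 mice (exact sign-flip test, adjusted p = 0.0234). This contrast too was chosen after the values were seen, and the adjustment over 3 contrasts does not account for that choice. The lowest H2-Aa library, tdTom+ of mouse 3, held 5 counts of the gene, so the largest ratios rest on few reads.

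Cd74 (ENSMUSG00000024610, chromosome 18, 60803848 to 60812646, plus strand), the invariant chain that blocks the peptide groove during transport, was the most abundant of the 7 genes in tdTom- cells. Its lowest, median and highest levels were 8.43, 20.1 and 87.0 CPM there and 0.906, 5.23 and 32.6 CPM in tdTom+ cells. Mice 8 and 3 were lowest in tdTom- and tdTom+ cells respectively, and mouse 6 was highest in both. The log2 fold change of -1.68 (SE 0.57, adjusted p = 0.0142, edgeR) did not pass the threshold without a mouse term. Once the mouse entered as a block it passed, at -1.84 (SE 0.15, adjusted p = 7.51e-09, edgeR), and within single mice it ran from -4.00 to -1.39. Cd74 also passed without mouse 6 (-1.82, adjusted p = 0.00651, edgeR).

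**Figure D2:**
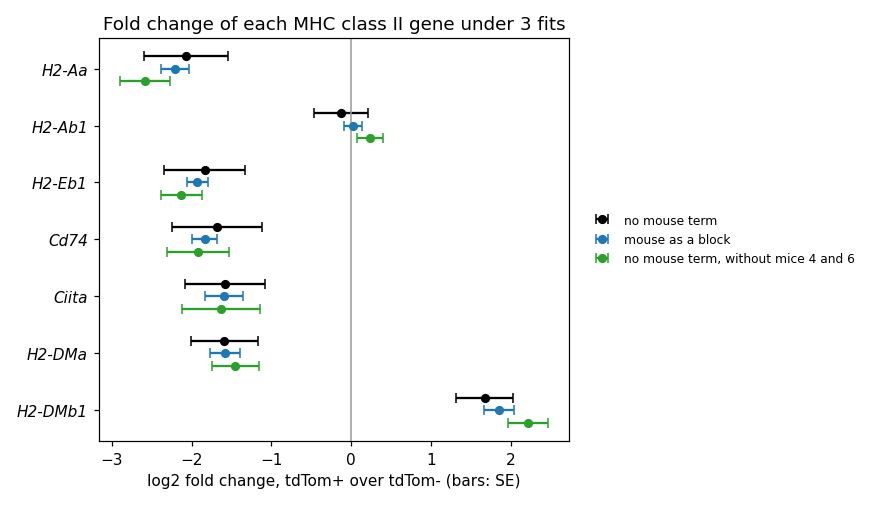
Log2 fold change of tdTom+ over tdTom- cells (x axis) with its SE for each of the 7 class II genes, without a mouse term, with the mouse as a block, and without mice 4 and 6. H2-Ab1 lies between -0.13 and 0.24 in the 3 fits, H2-DMb1 lies at 1.68 or above, and the other 5 genes lie at -1.45 or below.

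Ciita (ENSMUSG00000022504, chromosome 16, 10488178 to 10527564, plus strand), the transactivator, was the least abundant of the genes per length. Its lowest, median and highest levels were 0.159, 1.46 and 4.40 CPM in tdTom- cells and 0, 0.444 and 1.28 CPM in tdTom+ cells, from 0 to 115 counts per library. Mouse 3 was lowest in both populations, with 3 counts in tdTom- and 0 in tdTom+ cells, where a floor of 3 counts allows up to 0.194 CPM. The log2 fold change was -1.59 (SE 0.50, adjusted p = 0.00977, edgeR). This call was narrow in fits without a mouse term. It was lost in 7 of the 8 fits that each left out 1 mouse, all except that without mouse 3, with adjusted p from 0.0112 to 0.0284 in those 7 (edgeR). Blocked by mouse, the fold change stayed at -1.59 on the log2 scale with an adjusted p of 1.63e-05 (edgeR).

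The chains of H2-DM, the exchange factor that releases the invariant chain fragment, moved in opposite directions. H2-DMa (ENSMUSG00000037649, chromosome 17, 34135182 to 34139101, plus strand) was lower in tdTom+ cells. Its lowest, median and highest levels were 1.85, 2.65 and 9.51 CPM in tdTom- cells and 0.324, 0.824 and 3.23 CPM in tdTom+ cells, with a log2 fold change of -1.59 (SE 0.42, adjusted p = 0.00282, edgeR). H2-DMb1 (ENSMUSG00000079547, chromosome 17, 34153072 to 34160230, plus strand) was higher, at 0.426, 1.26 and 4.02 CPM in tdTom- cells and 3.65, 4.95 and 9.23 CPM in tdTom+ cells, with a log2 fold change of 1.68 (SE 0.36, adjusted p = 0.000411, edgeR). In H2-DMb1, only the tdTom- library of mouse 6 reached the range of the tdTom+ libraries. Its change within single mice ran from 1.18 to 3.16 on the log2 scale.

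The per-length ratio of H2-DMb1 to H2-DMa had a lowest, median and highest value of 0.184, 0.489 and 0.779 in tdTom- cells, where the alpha chain transcript was the more abundant in every library, and of 2.85, 5.48 and 15.9 in tdTom+ cells, where the beta chain transcript was. The within-mouse change of H2-DMb1 exceeded that of H2-DMa by 3.55 ± 1.00 on the log2 scale (SD, n = 8), in 8 of 8 mice (exact sign-flip test, adjusted p = 0.0117), a contrast also chosen after the values were seen. H2-DMb2, the neighbouring close copy of H2-DMb1, ran from 0.152 to 0.758 CPM in tdTom- libraries and from 0.664 to 1.91 CPM in tdTom+ libraries and rose in 8 of 8 mice (log2 fold change 1.27, SE 0.28, adjusted p = 0.000572, edgeR). Reads shared by these copies could have been split or lost in the counting, so that the level of each is uncertain.

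**Figure D3:**
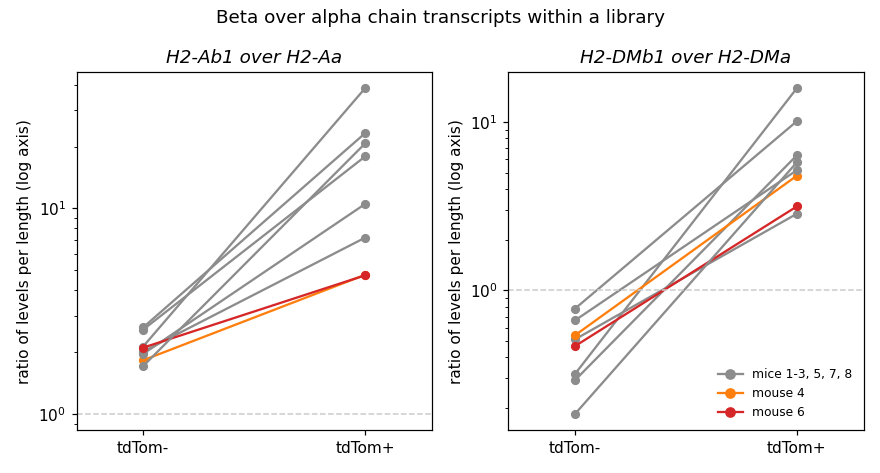
Ratio of the beta to the alpha chain transcript per length (log y axis) for H2-Ab1 over H2-Aa and for H2-DMb1 over H2-DMa in the 2 libraries of each mouse, 1 line per mouse. Both ratios are higher in tdTom+ cells in all 8 mice, and H2-DMb1 over H2-DMa crosses 1, from at most 0.779 to at least 2.85.

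Within the number series, H2-DMb1 was called in mice 1 to 3 (log2 fold change 2.34, adjusted p = 9.29e-05, edgeR) and in mice 5 to 8 (1.64, adjusted p = 0.00741, edgeR). H2-Aa had -2.48 in mice 1 to 3 (adjusted p = 0.000328) and -2.13 in mice 5 to 8 (adjusted p = 0.0276), and H2-Eb1 -2.22 (adjusted p = 0.00024) and -1.74 (adjusted p = 0.0745), both by edgeR. Cd74 had -1.93 and -1.60 (adjusted p = 0.0111 and 0.0928, edgeR), and H2-DMa had -1.33 and -1.60 (adjusted p = 0.0427 and 0.0302, edgeR). Ciita was tested in mice 5 to 8 alone (-1.58, adjusted p = 0.0224, edgeR). H2-Ab1 had 0.13 and -0.21 (adjusted p = 0.512 and 0.761, edgeR). H2-Aa, H2-Eb1, Cd74 and H2-DMa had negative fold changes in both series. In mice 5 to 8 neither these nor Ciita passed in edgeR, while 4 of the 5 had an unadjusted p under 0.05. The fits within a series held no mouse term, and in each of mice 5 to 8 all 5 genes were lower in the tdTom+ library. The series of mouse 4 holds 1 mouse and gives no value.

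The genes varied far more between mice than most genes did. The SD of log2 CPM over 8 mice ran from 0.84 for H2-DMa to 1.20 for Ciita in tdTom- cells and from 0.50 for H2-DMb1 to 1.66 for Cd74 in tdTom+ cells. The median SD over all genes tested was 0.18 in tdTom- and 0.19 in tdTom+ cells, and the SDs of the 7 genes lay between percentiles 92.3 and 99.9 of all genes tested. Among genes at or above the same level, these percentiles were 98.8 or more. Counting error enters these SDs and was not separated from them. Ciita had at most 115 counts in a library, whereas Cd74 had up to 3709. H2-Ab1 and H2-DMb1 spread less in tdTom+ than in tdTom- cells (SD 0.55 against 0.89 and 0.50 against 1.09), and the other 5 genes spread more there.

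Mice 4 and 6 had the highest CPM of all 7 genes in both populations, although H2-DMa in the tdTom+ library of mouse 1 (2.03 CPM) lay beside that of mouse 4 (2.05 CPM). Summed over the 7 genes, their tdTom- libraries reached 132 and 179 CPM, against 23.0 to 57.9 CPM in the other 6 mice. Their tdTom+ libraries reached 61.7 and 80.6 CPM, against 17.0 to 32.6 CPM. Mouse 4 was also the only mouse of its number series, and its tdTom- library the largest, so in that mouse the series and the level cannot be told apart. Mouse 6 shared a series with mice 5, 7 and 8. Without mice 4 and 6, an alternative chosen after seeing the data, 5 of the 7 genes were lower and 1 was higher, H2-Aa had a log2 fold change of -2.58, Cd74 of -1.92 (adjusted p = 0.000457, edgeR), H2-DMb1 of 2.21 and H2-Ab1 of 0.24 (adjusted p = 0.238, edgeR).

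Mice with a high level in tdTom- cells also had a high level in tdTom+ cells. Over 8 mice, Pearson's r of log2 CPM between the populations ran from 0.73 for H2-DMa to 0.97 for H2-Ab1 (exact permutation test over pairings, two-sided, p = 0.0406 and 0.000794, and 0.0406 and 0.00495 adjusted over the 7 genes). All 7 adjusted values were at or under 0.0406. Spearman's rho ran from 0.57 for H2-DMa to 0.90 for Cd74 (exact permutation p = 0.151 and 0.00456, and 0.151 and 0.0269 adjusted). By rho, H2-Ab1, H2-Eb1, Cd74 and H2-DMb1 passed at an adjusted p of 0.05, and H2-Aa, Ciita and H2-DMa did not. Without the 2 mice farthest from the median tdTom- level, which were mice 4 and 6 for 6 genes and mice 3 and 6 for Ciita, r ran from -0.05 for H2-DMa to 0.81 for H2-Ab1 and passed for none (exact permutation, lowest p = 0.0583, or 0.366 adjusted). The test over 8 mice thus rests on those mice, although dropping them also narrows the range and leaves 6, and r stayed at 0.81 for H2-Ab1, 0.66 for Cd74 and 0.65 for H2-Eb1.

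**Figure D4:**
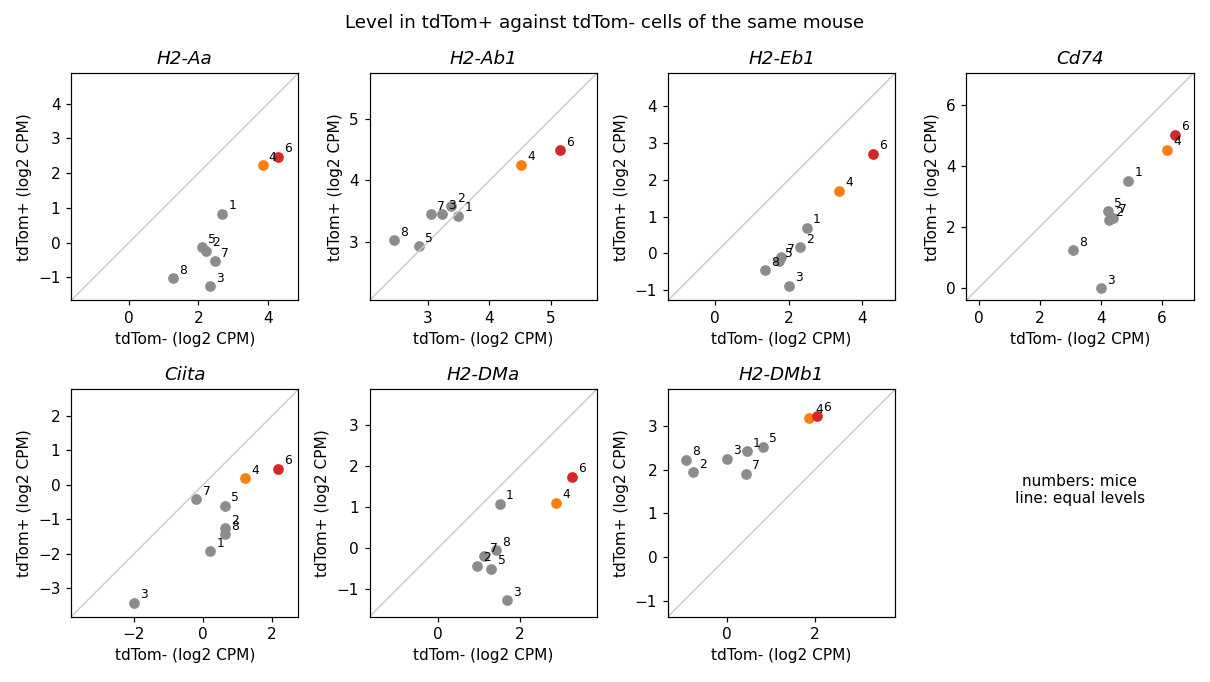
Log2 CPM in tdTom+ cells (y axis) against tdTom- cells (x axis) of the same mouse for each of the 7 class II genes, with mouse numbers at the points and a line at equal levels. Mice 4 and 6 lie at the upper right of every panel, H2-DMb1 lies above the line in 8 of 8 mice, and 5 genes lie below it in 8 of 8.

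Per length, the order of levels differed between the populations. In tdTom- cells the mean FPKM was 24.1 ± 20.5 for Cd74, 8.37 ± 6.26 for H2-Ab1, 5.59 ± 4.82 for H2-Eb1, 4.09 ± 3.14 for H2-Aa, 2.40 ± 1.73 for H2-DMa, 1.14 ± 0.92 for H2-DMb1 and 0.31 ± 0.24 for Ciita (SD, n = 8). Each neighbouring pair in this order differed on the log2 scale within libraries, in 7 or 8 of 8 mice (exact sign-flip test, two-sided, adjusted p = 0.0134 to 0.0208 over 12 pairs). In both populations the order was taken from the values tested, and neither the tests nor their adjustment account for that. In tdTom+ cells H2-Ab1 (7.73 ± 3.23 FPKM), Cd74 (7.54 ± 8.01) and H2-DMb1 (3.84 ± 1.47) came first, and their neighbours in mean log2 FPKM were not distinguished (exact sign-flip, adjusted p = 0.216 and 0.605). H2-Eb1 followed at 1.56 ± 1.72 FPKM, below H2-DMb1 in 8 of 8 mice. H2-DMa and H2-Aa were next at 0.803 ± 0.615 and 0.974 ± 1.08 FPKM and were not distinguished (exact sign-flip, adjusted p = 0.719), and Ciita came last at 0.103 ± 0.084 FPKM. In mean log2 FPKM, H2-DMb1 thus stood above H2-Eb1, H2-Aa and H2-DMa in tdTom+ cells and below all 3 in tdTom- cells.

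Other genes of the class II pathway were read off a list of 24, of which 16 had enough counts to be tested. In tdTom+ cells 4 of the 16 were higher (25.0%) and 5 lower (31.2%), close to the 25.5% of all genes in each direction, with a median log2 fold change of -0.05. Among the endosomal proteases, Ctss, the main trimmer of the invariant chain, fell most (log2 fold change -2.53, SE 0.10, adjusted p = 1.7e-14, edgeR), from 186 to 332 CPM in tdTom- cells to 38.2 to 51.3 CPM in tdTom+ cells without overlap. Ctsl fell by 1.19 and Ctsb by 0.62 on the log2 scale, and Lgmn rose by 0.63. Ctsd (-0.11), the thiol reductase Ifi30 (-0.03) and the intramembrane protease Sppl2a (0.14), which removes the last invariant chain fragment, did not pass. Unlike the 7 genes, Ctss was lowest in mouse 4 in both populations.

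The DNA-binding factors that recruit CIITA were all expressed in both populations and changed little. Rfxank (-0.43) and Nfya (-0.31) were lower and Nfyb (0.35) was higher, while Rfx5 (0.23), Rfxap (0.14), Nfyc (-0.16) and Creb1 (-0.06) did not pass. Marchf8, a ubiquitin ligase of the family that removes class II from the surface, rose by 0.26. The 8 genes not tested, H2-Oa, H2-Ob, H2-Eb2, H2-Ea, Marchf1, Cd80, Cd86 and Cd40, had 0 to 106 counts over all 16 libraries. Cd80 and Cd86, the costimulatory ligands of professional antigen-presenting cells, had 11 and 27.

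Ifng itself had 0 counts in every library. Of 11 genes of interferon gamma signalling, 10 were tested, and tdTom+ cells had 5 of them lower and 1 higher, with a median of -0.54. Both receptor chains were lower, Ifngr1 by -1.22 and Ifngr2 by -0.81, as were the kinase Jak2 (-0.41) and the transcription factors Irf1 (-0.90) and Irf8 (-0.81), and Jak1 was higher (0.41). Irf2 (-0.16), Socs1 (-0.34) and Socs3 (-0.67) did not pass. In the blocked fit 7 of the 10 were lower, beside 28.9% of all genes tested, Irf2 and Socs3 (adjusted p = 0.00368 and 5.95e-06, edgeR) being the additional ones. Irf1, which acts on the interferon-responsive promoter of Ciita, ran from 113 to 151 CPM in tdTom- libraries and from 57.7 to 88.8 CPM in tdTom+ libraries.

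Of 21 known target genes of interferon gamma, 19 were tested, 6 were higher (31.6%) and 3 lower (15.8%), beside 25.5% of all genes in each direction, with a median of 0.20. Ido1 (4.37) and Cxcl11 (3.60) rose most, and Ubd (-2.22) and Gbp8 (-1.82) fell most. Summed over the list, mouse 6 was highest in both populations, at 204 CPM in tdTom- cells and 301 CPM in tdTom+ cells. Mouse 4 was next, at 114 and 146 CPM, against at most 109 and 131 CPM in the other 6, both in mouse 8. Mouse 8 had the lowest class II sums, at 23.0 and 17.0 CPM. Ido1 alone had a median of 4.86 CPM and a highest value of 88.4 CPM in tdTom+ libraries. The 12 genes of class I presentation were all tested, and 7 were lower (58.3%), beside 25.5% of all genes. The 12 fold changes were all negative, with a median of -0.43. B2m, the light chain of class I, and Psmb8, an immunoproteasome subunit, fell most, by 1.06 and 1.01 on the log2 scale. In the blocked fit 10 of the 12 class I genes were lower, and of the 19 interferon gamma targets 9 were higher and 4 lower. In that fit 28.9% of all genes tested were lower and 28.4% higher.

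**Figure D5:**
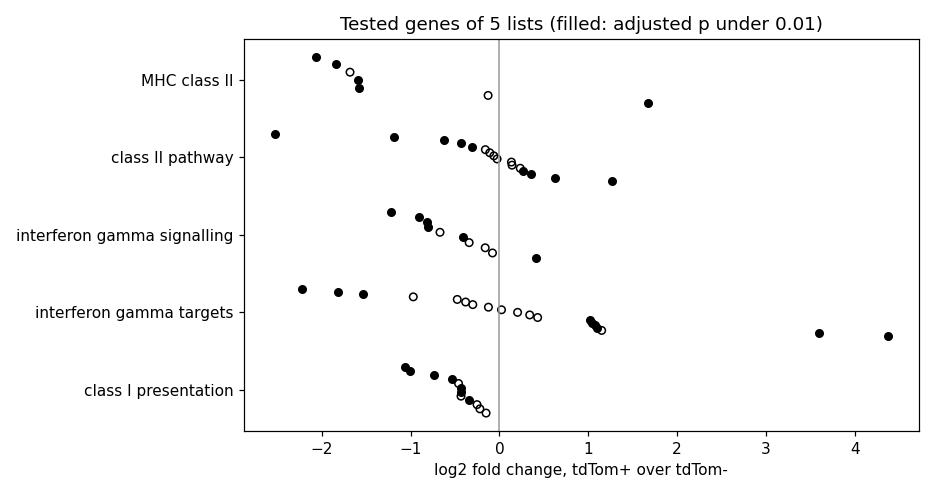
Log2 fold change of tdTom+ over tdTom- cells (x axis) for the tested genes of 5 lists, 1 point per gene, filled where the adjusted p was under 0.01 in edgeR. The class II genes hold 4 filled points on the left and 1 on the right, and the class I list 7 on the left.

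The genes whose deviations from the population means most resembled the average of the 7 class II genes over the 16 libraries were Tap1 (r = 0.91), H2-Q7 (0.89), Erap1 (0.86), Psmb8 (0.85), Psmb9 (0.84), H2-Q6 (0.83), Nlrc5 (0.83), Rcn1 (0.83), Irgm1 (0.82) and Gm19680 (0.82). The 16 points are 8 mice with 2 libraries each, and mice 4 and 6 lie at the high end, so these values are descriptive. Tap1, a chain of the peptide transporter of class I, was at 32.0 and 39.1 CPM in the tdTom- libraries of mice 4 and 6 and at 20.3 to 24.7 CPM in the other 6. Nlrc5, the class I counterpart of Ciita, was at 1.96 and 4.06 CPM there, against 0.318 to 1.10 CPM. The 7 genes themselves had r from 0.76 for Ciita to 0.97 for H2-Eb1 with their own average, of which each is a part. Their likeness between mice went with fold changes of either sign, H2-DMb1 having r = 0.81.

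Markers of other cell types were read in the same libraries, since class II genes are abundant in immune cells. Of 6 leucocyte markers, Ptprc alone was tested and was lower in tdTom+ cells (log2 fold change -1.52, SE 0.21, adjusted p = 2.28e-06, edgeR), with 3.27 to 9.56 CPM in tdTom- libraries against 1.27 to 3.02 CPM in tdTom+ libraries. The summed leucocyte list lay at 3.83 to 11.9 CPM in tdTom- cells and 1.46 to 3.62 CPM in tdTom+ cells, so it moved in the same direction as H2-Aa, H2-Eb1, Cd74, Ciita and H2-DMa. Its part in their difference was not tested, and fewer cells of a type cannot be told apart from less RNA per cell in these bulk samples. Among the tdTom- libraries, that of mouse 4 had the lowest leucocyte sum (3.83 CPM, of which Ptprc was 3.27 CPM). That of mouse 6 had 6.88 CPM, and the median was 8.19 CPM. The part of leucocytes in the spread between mice was not tested.

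Markers of antigen-presenting cells ran from near 0 to levels like those of several class II genes, and their part in the results was not tested. The tdTom- median of Itgam, a macrophage and monocyte marker, was 5.39 CPM, between those of H2-Aa (5.23 CPM) and H2-Ab1 (9.76 CPM). Its tdTom+ median was 5.25 CPM, between those of Cd74 (5.23 CPM) and H2-Ab1 (10.8 CPM). Itgam had the highest tdTom- median of its list, the others lying between 0 (Fcgr1) and 1.95 CPM (Lyz2), with Csf1r at 0.386 CPM. These values are in CPM and are not corrected for gene length. Of 8 dendritic cell markers Flt3 alone was tested, at 1.49 to 2.46 CPM and with a log2 fold change of -0.03 (adjusted p = 0.885, edgeR). Xcr1 reached at most 1.04 CPM, Itgax and Zbtb46 0.594 CPM each, Clec9a, Cd209a, Batf3 and Ccr7 had 1 to 5 counts over all libraries, and the list sum was 2.08 to 3.42 CPM in tdTom- cells and 2.20 to 3.11 CPM in tdTom+ cells. Of 6 B and plasma cell markers none had enough counts to be tested, with sums of 0.521 to 2.23 and 0.120 to 0.958 CPM. Of 11 macrophage and monocyte markers 4 were tested and Cd68 was lower (-0.81), joined by Lyz2 in the blocked fit (-1.91, adjusted p = 1.62e-06, edgeR), with sums of 8.67 to 39.4 CPM in tdTom- cells and 6.82 to 13.9 CPM in tdTom+ cells. Itgam was at 4.04 to 8.68 CPM over all libraries, and Lyz2 reached 19.6 CPM in tdTom- cells and 2.93 CPM in tdTom+ cells. The highest macrophage and monocyte sum was in mouse 2, whose summed class II level of 42.5 CPM in tdTom- cells lay within those of the other mice, and mice 4 and 6 had 9.35 and 10.7 CPM in tdTom- cells. Of 11 T cell and intraepithelial lymphocyte markers Itgae alone was tested (0.30, adjusted p = 0.372, edgeR), Cd4 had 0 counts, and the sums were 1.12 to 2.10 and 1.01 to 2.21 CPM. The 6 mast cell markers summed to at most 2.08 CPM and had too few counts to be tested. Of 8 stromal and endothelial markers 2 were tested and Pecam1 was lower (-1.58), with sums of 7.70 to 20.7 and 4.96 to 11.5 CPM. Of 8 epithelial markers 7 were lower and 1 was higher, and of 6 stem cell markers 5 were tested, 4 were lower and 1 was higher.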

How the data were processed

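RNA was sequenced from EpCAM+ tdTom+ and EpCAM+ tdTom- colon cells of 8 mice, as stranded mRNA libraries read from 1 end. Per the file headers, the authors counted primary alignments per gene on exons of GRCm38 with featureCounts 1.5.0-p1, on the reverse strand, and deposited the counts without normalization. The submitters' processing notes name TopHat2 2.1.1, Subread 1.5.2, DESeq2 1.14.1 and GRCm38.p3. The study's methods on animals give the tamoxifen dose of the labels for this comparison, and those on RNA sequencing give another.

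Gene symbols came from GENCODE M21 for 44585 of 45513 genes. Populations were compared on these counts by edgeR 4.0.16 (R 4.3.3, filterByExpr, TMM, glmQLFit, glmQLFTest, no mouse term, since the study's methods name none, Benjamini-Hochberg adjusted p under 0.01), which left 15841 genes. Each SE is the log2 fold change over the square root of F. CPM and FPKM used TMM library sizes, and log2 CPM a prior count of 2. Alternatives were the mouse as a block, DESeq2 1.42.0, limma-voom (limma 3.58.1), other normalizations, filters and thresholds, 1 mouse left out at a time, and either number series alone. Tests of single values used exact sign-flips or pairings over 8 mice (scipy 1.17.1). The fits were tested on simulated counts, with changes planted only in genes with high counts and a small shared effect of the mouse. That test does not cover genes with few counts or with a large shared effect of the mouse.

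The labels give a tdTom+ and a tdTom- library the same mouse number, so they are paired by animal. Their deviations from the population means correlated across genes in every mouse (r from 0.22 to 0.41, mean 0.30). No 2 libraries of a population differed as little as sampling noise.

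The 7 genes and all lists were chosen with earlier results of these data known. Named genes are the 7, the members of the class II pathway and interferon gamma signalling lists, at most the 2 largest changes in each direction of the other lists, the 10 genes most like the average of the 7, and Atoh1. Other cell type markers, Flt3, Itgae, Itgam, Lyz2 and Pecam1 among them, were named after their values were seen. Some listed genes are counted in their lists but not reported here by name.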

Additional observations from a re-analysis of the deposited data

How the results depend on the processing

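At this depth Ciita, H2-DMa, H2-Aa and H2-Eb1 had 0 to 7 counts in their lowest tdTom+ library, which limits the precision of their fold changes. H2-Aa, H2-Eb1, Cd74, Ciita, H2-DMa and H2-DMb1 kept their direction under every alternative that tested them. H2-Ab1, never called, turned positive with the mouse as a replicate block (0.0203), in DESeq2 with that block (0.0422), without mouse 6 (0.0702, the lowest value with 1 mouse left out being -0.18 without mouse 7), in mice 1 to 3 (0.13), and without mice 4 and 6 without and with the block (0.24 and 0.25, chosen after seeing the data). The block called Cd74 as well, so that 5 of the 7 genes were lower and 1 was higher, and of all genes 4574 were lower and 4494 higher against 4042 and 4032. It changed no other call among the 7. Leaving out 1 mouse gave 2 to 4 class II genes lower, the count of 2 being without mouse 1, 1 higher each time, and 3700 to 3914 genes lower and 3670 to 4177 higher in all. DESeq2 called 3 lower. With at least 10 counts in every sample only H2-Ab1 and Cd74 were tested, 0 were lower and 0 higher by edgeR, and Cd74 had an unadjusted p under 0.05. Mice 1 to 3 gave 2 class II genes lower, and 2559 genes lower and 2546 higher in all. Mice 5 to 8 gave 0 lower by edgeR, with 4 at an unadjusted p under 0.05, and 3557 genes lower and 3416 higher in all. Neither of these series fits held a mouse term. Ciita was also not called by DESeq2 (adjusted p = 0.0171) or limma-voom (adjusted p = 0.0251), and Cd74 was called by limma-voom (adjusted p = 0.00666). The r between populations turned to -0.0511 for H2-DMa without mice 4 and 6. The cause of these shifts was not tested.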
